A study of Fragaria x ananassa with 28 samples.

Results

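Gibberellin-regulated proteins and snakins are members of 1 family of small secreted plant peptides, whose mature part is a C-terminal domain with conserved cysteines, the GASA domain. Of 301219 assembled transcripts of the strawberry receptacle, 48 had a Swiss-Prot name of this family, and the 21 with 1 RPKM or more in at least 2 libraries are described here. RPKM divides a transcript's reads by its length and by the depth of the library, so that levels of different transcripts can be set side by side. The 21 transcripts came from 12 assembly components, which are groups of transcript forms that the assembler could not separate.

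The family was founded on tomato GAST1, a transcript raised by gibberellin, the hormone that drives cell elongation through the removal of DELLA repressors. In Arabidopsis, where gibberellin-regulated proteins 1, 6, 11 and 14 (GASA1, GASA6, GASA11 and GASA14) were named, several members respond to gibberellin and abscisic acid (ABA) in opposite directions, GASA6 among them, and take part in germination, growth and stress responses. Snakin-1 and snakin-2 of potato inhibit the growth of bacteria and fungi. In strawberry, GAST-type peptides are known to restrain cell elongation, and the fruit flesh is a receptacle that swells and then ripens under control of ABA.

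The fruits were of the octaploid Fragaria x ananassa cultivar Toyonoka, grown in a greenhouse. At 2 weeks after flowering, 100 μL of distilled water, of 1 μM ABA or of 100 μM nordihydroguaiaretic acid (NDGA), a blocker of ABA synthesis, was injected into the core of the receptacle. Water-injected fruits were taken at day 0, day 5 and day 8, and ABA- and NDGA-injected fruits at day 5 and day 8, which gave 7 groups with 2 polyadenylated RNA libraries each. RNA of 10 fruits was pooled per group. The sources used here do not say if both libraries of a group were made from the same pool, so p-values measure the spread between libraries, which may be technical.

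The 14 libraries held 7356752 to 9035037 counted reads, so 1 read on a transcript of 1 kb was worth 0.111 to 0.136 RPKM. A count of 0 allows up to 3 reads per library. On a snakin-1 form of 472 bases this is 0.725 to 0.864 RPKM over the 7 groups, taking the library with fewer reads in each. These limits cover counting error only. Transcripts named as seed storage or oil body proteins, markers of the seeds in the achenes, summed to 20808 RPKM at day 0, 5123 in water at day 5 and 81.7 to 234 in the other groups.

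In water-injected fruits the summed level of the family was lowest at day 5 and highest at day 8. The RPKM of the 21 transcripts summed to 945 ± 156 at day 0 (mean ± SD, n = 2 here and below), 260 ± 21.6 at day 5 and 1256 ± 156 at day 8. ABA-injected fruits held 111 ± 31.7 at day 5 and 163 ± 11.8 at day 8, the 2 lowest sums, and NDGA-injected fruits held 669 ± 25.8 and 822 ± 39.4. In bulk tissue, fewer cells of a type and less RNA per cell cannot be told apart.

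Over the first 5 days in water, 11 of the 21 transcripts passed limma's test (adjusted p below 0.05 over 99136 transcripts), against 12.9% of all transcripts tested. Of these, 10 fell, against 7.9% of all, and 1 rose, against 4.98%; the transcript that rose is the GASA14-named comp118646_c0_seq2, whose other annotation differs from its name. Between day 5 and day 8, 9 passed (4.67% of all), 7 of them higher at day 8 (2.89% of all) and 2 lower (1.78%). Day 8 against day 0 gave 9 calls (10.6% of all), with 3 higher (4.87%) and 6 lower (5.68%). These 3 comparisons share water libraries. The median log2 changes of the 21 were -0.72, 0.26 and -0.16, beside -0.03, 0.04 and 0.00 over all transcripts tested. With the compared groups fitted alone, 3, 2 and 2 members passed.

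With ABA at day 5, 4 transcripts were lower than in water (0.956% of all transcripts) and none of the 21 was higher (1.21% of all), against 2.16% of all called in either direction. All 4 belonged to GASA1 and GASA6 names. At day 8, 9 passed (13.3% of all), 8 of them lower with ABA (8.98%) and 1, a snakin-1 form, higher (4.3%). The medians of the 21 were -0.57 and -0.76, beside 0.00 and -0.20 over all transcripts tested. Fitted alone, the compared groups gave 0 and 6 calls.

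With NDGA the direction depended on the day. At day 5, 8 transcripts of the GASA1, GASA6, GASA11, GASA14 and snakin-1 names were higher than in water (1.23% of all transcripts) and none of the 21 was lower (0.802%), against 2.03% of all called. At day 8, 6 passed (2.18% of all), 5 lower with NDGA (1.48%) and 1 higher (0.705%). Medians of the 21 were 0.82 and 0.04, beside 0.01 and 0.00 over all transcripts tested. Fitted alone, the compared groups gave 1 and 0 calls. Fewer of the 21 were called at day 8 without water day 8 replicate 1 or without either NDGA day 8 library. Calls over all transcripts tested also became fewer in these fits. ABA and NDGA were compared with the same water libraries and were not tested against each other.

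**Figure D1:**
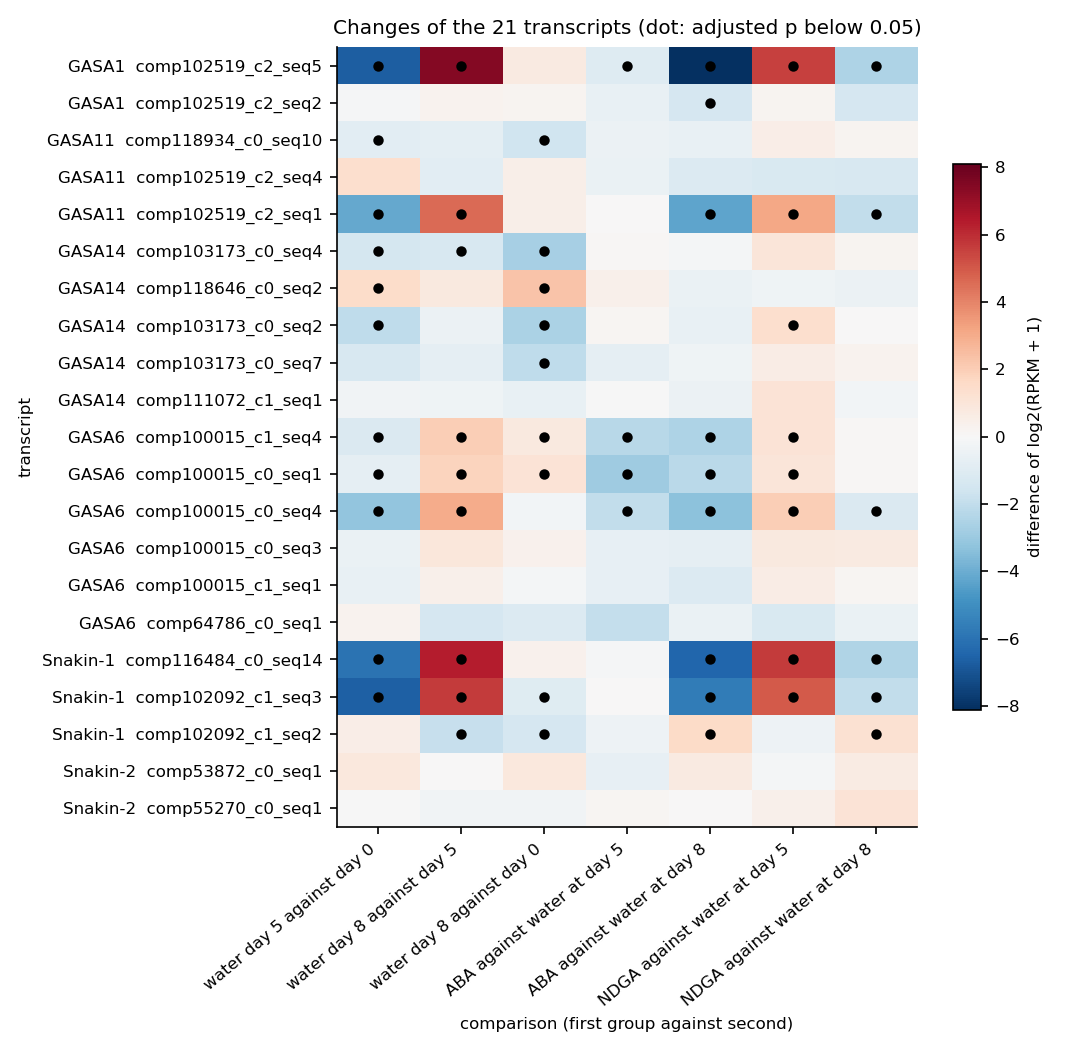
Differences of log2(RPKM + 1) for the 21 transcripts (vertical axis) in 7 comparisons (horizontal axis), blue for lower and red for higher in the group named first, with a dot where limma's adjusted p was below 0.05. The GASA1 form comp102519_c2_seq5 and 2 snakin-1 forms show the deepest colours, with differences from -8.07 to 7.41 in the GASA1 form, and the 2 snakin-2 transcripts have no dot.

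The GASA1 transcript comp102519_c2_seq5 was the second most abundant of the family and went from over 100 RPKM to nearly none within 5 days. In water it stood at 243 and 178 RPKM at day 0, at 0.955 and 1.12 at day 5, and at 394 and 304 at day 8. With ABA it stood at 0 and 0 at day 5 and at 0.664 and 0 at day 8. With NDGA it stood at 92.7 and 94.5 at day 5 and at 59.2 and 60.1 at day 8. The groups fall in 2 classes with no overlap: water at day 5 and the 4 ABA libraries were all at or below 1.12 RPKM, or 6 reads, and every other library was at 59.2 RPKM or more.

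On the log2(RPKM + 1) scale this GASA1 form fell by 6.68 (SE 0.232, limma adjusted p = 9.75e-10) to day 5 and was 7.41 higher at day 8 than at day 5 (adjusted p = 7.93e-10). ABA at day 8 differed from water by -8.07 (adjusted p = 8.55e-11). NDGA was 5.54 above water at day 5 (adjusted p = 1.42e-08) and differed from it by -2.52 at day 8 (adjusted p = 5.72e-05), the latter lost at a pseudocount of 0.1 (adjusted p = 0.0885). The ordered levels ran from water at day 8 over water at day 0, NDGA at day 5 and NDGA at day 8 to the 3 low groups. The difference between water at day 8 and day 0 did not pass (0.73 higher, adjusted p = 0.0643), and passed in 6 alternative fits. ABA at day 5 was called lower than water (adjusted p = 0.0365), but on 6 reads per water library, and the call was lost on leaving out any of 11 of the 14 libraries (adjusted p up to 0.21).

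Of the other forms of the same component, 1 followed and 2 did not. A GASA11-named form, comp102519_c2_seq1, stood at 24.2 and 11.4 RPKM in water at day 0, at 0 and 0 at day 5 and at 37.4 and 14.4 at day 8. It was at 0 in 3 of the 4 ABA libraries and at 0.6 in the other, at 8.5 and 7.38 with NDGA at day 5 and at 5.04 and 5.2 at day 8. It thus shared the 2 classes of the GASA1 form. No fold is given against its groups at 0, since its reads, like those of the GASA1 form and of snakin-1 comp116484_c0_seq14, were even numbers in all 14 libraries and may count both reads of a pair. Its fall to day 5 had an adjusted p of 2.55e-05 and its lower level with ABA at day 8 one of 1.82e-05 by limma. The lower level with NDGA at day 8 (adjusted p = 0.0284) was lost without water day 8 replicate 1 or either NDGA day 8 library (adjusted p 0.147 to 0.249).

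The remaining members of that component, the GASA1-named comp102519_c2_seq2 and the GASA11-named comp102519_c2_seq4, kept reads in all 14 libraries. Levels of comp102519_c2_seq2 were 15.4 ± 0.752 RPKM at day 0, 14.6 ± 0.875 at day 5 and 18.2 ± 6.08 at day 8 in water. Its only call was a lower level with ABA at day 8, 6.35 ± 2.45 RPKM, with an adjusted p of 0.0332 that was lost on leaving out any of 4 libraries (adjusted p up to 0.233), 2 of them from water at day 0, 1 from water at day 8 and 1 from ABA at day 8. It was named after its values were seen. Form comp102519_c2_seq4 was at 16.6 ± 0.184 RPKM in water at day 5, its highest group, and at 3.14 ± 1.87 with NDGA at day 8, its lowest, with no call.

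**Figure D2:**
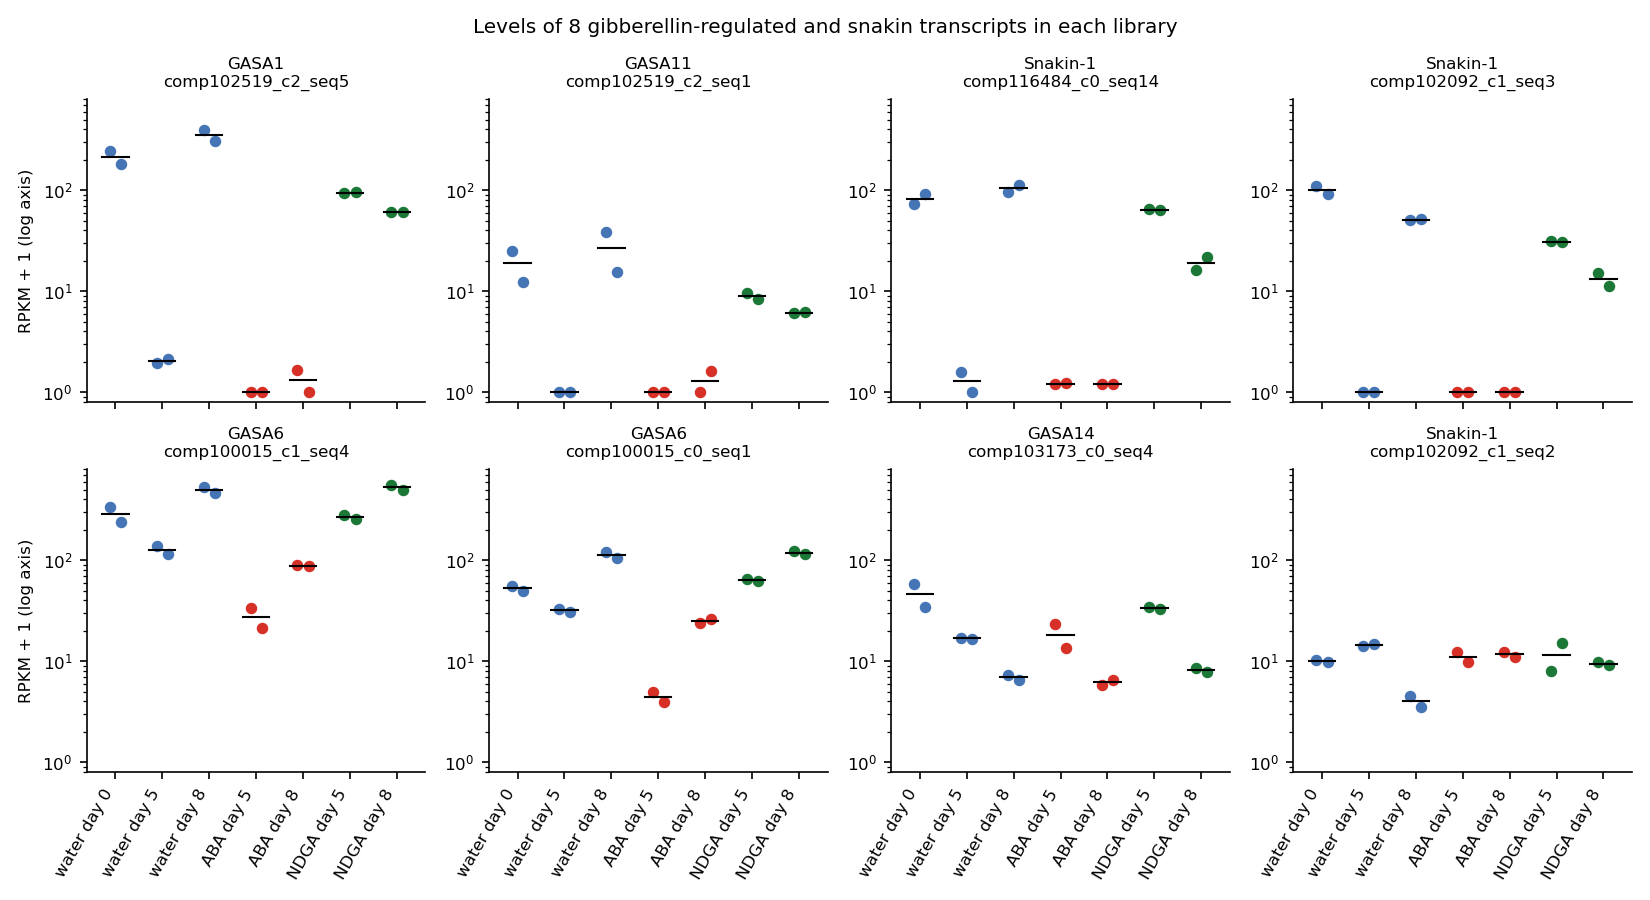
RPKM + 1 on a log axis in each of the 14 libraries (points, coloured blue for water, red for ABA and green for NDGA) for 8 transcripts, with the group mean as a bar. The 4 upper panels show forms at or below 1.12 RPKM in water at day 5 and in every ABA library and at 5.04 RPKM or more elsewhere, and the lower panels show forms that kept reads in every library.

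Snakin-1, the antimicrobial peptide of potato tubers, was the name of 3 transcripts, and the more abundant 2 followed the GASA1 form. In water, comp116484_c0_seq14 stood at 71.7 and 89.5 RPKM at day 0, at 0.599 and 0 at day 5 and at 95.8 and 111 at day 8. It was at 0.2 and 0.218 with ABA at day 5 and at 0.208 in both ABA libraries at day 8, which are 2 reads each. It was at 64.1 and 61.9 with NDGA at day 5 and at 15.3 and 20.7 at day 8. Low libraries never exceeded 6 reads, and the high ones held 140 reads or more.

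In water comp116484_c0_seq14 fell by 6.00 on the log2 scale to day 5 (SE 0.242, limma adjusted p = 3.48e-09), and the return to day 8 was 6.36 (adjusted p = 4.41e-09). ABA at day 8 differed from water by -6.43 (adjusted p = 1.23e-09). NDGA was 5.66 higher at day 5 (adjusted p = 1.58e-08) and the difference at day 8 was -2.47 (adjusted p = 9.52e-05, and 0.084 at a pseudocount of 0.1). In order of level, water at day 8 and water at day 0 came first and did not differ past the threshold (adjusted p = 0.425), followed by NDGA at day 5, NDGA at day 8 and the 3 low groups. At day 5, ABA held 2 reads per library and water 6 and 0, and the difference did not pass (-0.07, adjusted p = 0.978).

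The other snakin-1 form of this kind, comp102092_c1_seq3, had no read at all in the 6 low libraries. It stood at 108 and 90.3 RPKM in water at day 0 and at 49.6 and 50.2 at day 8, and at 30.4 and 29.5 with NDGA at day 5 and 14 and 10.3 at day 8. With 3 reads per library in place of a 0, it was at least 115-fold lower in water at day 5 than at day 0 and at least 57.7-fold higher at day 8 than at day 5. At day 8 it was at least 65-fold lower with ABA than with water, and at day 5 at least 34.7-fold higher with NDGA. Unlike the GASA1 form it was lower in water at day 8 than at day 0 (-0.97 on the log2 scale, limma adjusted p = 0.00946), a call lost without water day 0 replicate 1 or either water day 8 library (adjusted p 0.0606 to 0.0758).

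The third snakin-1 transcript, comp102092_c1_seq2, of the same component, moved the other way and was named after its values were seen. It stood at 9.41 and 8.75 RPKM in water at day 0, at 13.1 and 13.9 at day 5 and at 3.52 and 2.56 at day 8. At day 8 it was at 11.4 and 10.1 with ABA and at 8.78 and 8.23 with NDGA, all above the water libraries. It fell by 1.86 between day 5 and day 8 in water (limma adjusted p = 0.00133) and was 1.55 higher with ABA than with water at day 8 (adjusted p = 0.00208). Higher levels with NDGA at day 8 (1.24, adjusted p = 0.0336) did not pass on leaving out any of 10 libraries (adjusted p up to 0.222), and lower levels at day 8 than at day 0 in water (adjusted p = 0.00681) not without water day 0 replicate 1 or water day 8 replicate 2 (adjusted p up to 0.0677).

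An assembly cannot tell splice forms from alleles or from the several subgenome copies of an octaploid, and reads may be divided among similar forms, so the sums over each component were tested as well. The component comp102519_c2 summed to 250 ± 55.8 RPKM at day 0, 32.3 ± 0.941 at day 5 and 403 ± 90.2 at day 8 in water, to 23.3 ± 16.2 and 11 ± 5.5 with ABA, and to 126 ± 4.6 and 74.2 ± 2.15 with NDGA. It fell by 2.90 on the log2 scale to day 5 (limma adjusted p = 0.000116), less than in the GASA1 form alone, and ABA at day 8 differed from water by -5.13 (adjusted p = 4.45e-07). NDGA was 1.93 above water at day 5 (adjusted p = 0.0122) and differed from it by -2.41 at day 8 (adjusted p = 0.00275).

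Component comp116484_c0 summed to 165 ± 2.88, 29.1 ± 0.907 and 127 ± 3 RPKM in water, to 34.2 ± 2.98 and 27.6 ± 1.42 with ABA and to 90.8 ± 2.02 and 36.7 ± 1.76 with NDGA. Beside snakin-1 it held comp116484_c0_seq2, named peamaclein, a peach allergen of the same peptide family that the rule does not name, at 4.13 to 17.3 RPKM per group, and an unnamed form, comp116484_c0_seq8, that kept 20.1 ± 3.63 RPKM in water at day 5 and 26.1 ± 2.13 and 22.8 ± 1.55 with ABA. The sum was lower in water at day 8 than at day 0 (-0.38, limma adjusted p = 0.0309), where the snakin-1 form alone was not. Component comp102092_c1 summed to 116 ± 14.1, 19.0 ± 0.437 and 54.2 ± 0.228 RPKM in water, to 13.3 ± 3.94 and 14.0 ± 1.22 with ABA and to 43.6 ± 4.68 and 25.5 ± 0.577 with NDGA, so it followed its larger form and not comp102092_c1_seq2. For these 3 components the fall and return in water, the lower level with ABA at day 8, and the NDGA differences at both days passed limma's test in the same direction as for the 4 forms described.

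**Figure D3:**
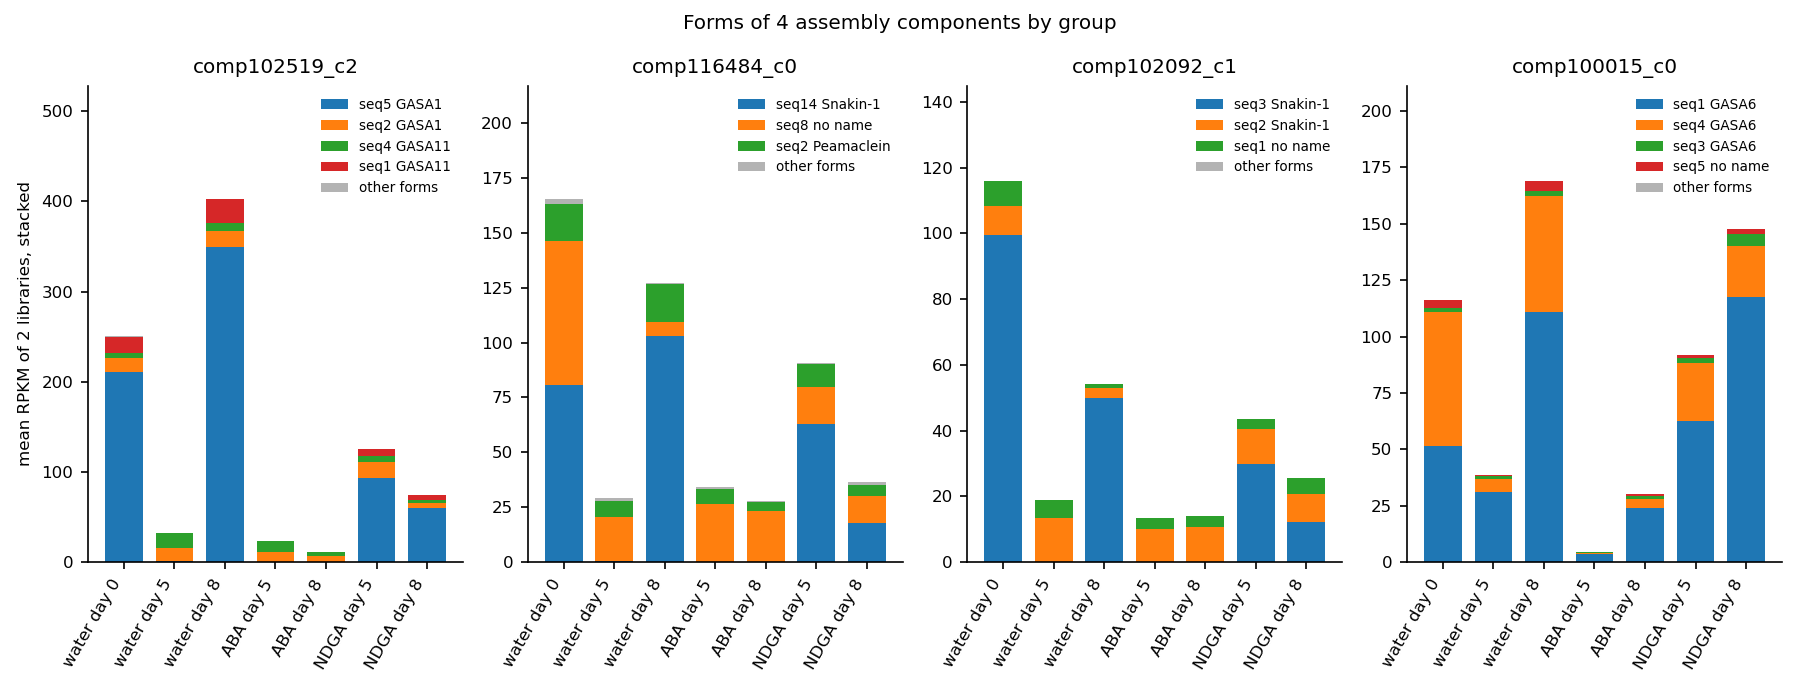
Mean RPKM of 2 libraries per group, stacked by transcript form, for 4 assembly components on separate vertical scales. In comp102519_c2, comp116484_c0 and comp102092_c1 the blue form averages 1.04 RPKM or less in water at day 5 and with ABA at both days, while other forms remain, whereas in comp100015_c0 the blue GASA6 form is present in every group.

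The shared on-and-off pattern was rare but not limited to the family. Its limits were set after the values were seen: under 1.5 RPKM in all 6 libraries of water at day 5 and of ABA, and 5 RPKM or more in the other 8. It held for 4 of the 21 family transcripts and for 25 of the 99136 tested transcripts (0.0252%), and the reverse held for 2. Of the 25, 10 had a Swiss-Prot name; beside the family these included histone H4, a Sec61 subunit of the protein translocation channel, endoglucanase 6 and a 40S ribosomal protein S24. Components of the 25 differed in this. That of the ribosomal form, comp99376_c1_seq4, summed to 68.9 RPKM in water at day 5, 67.9 and 70.6 with ABA and 56.8 to 103 in the other groups. The form itself was at 0 in water at day 5 and in both ABA groups and at 7.86 to 30.4 elsewhere. By contrast, the unnamed component comp97704_c0, of 15 forms, summed to 42.1, 1.29 and 25.0 RPKM in water at days 0, 5 and 8. It summed to 1.36 and 0.718 with ABA and to 7.48 and 12.1 with NDGA.

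Transcripts outside their own component that were most like the given forms over the 14 libraries had the same shape. For the GASA1 form these were NADH dehydrogenase 1 beta subcomplex subunit 3-B (comp106676_c0_seq2, Pearson r = 0.994 of log2(RPKM + 1)), a form named as a sulfated surface glycoprotein (comp53682_c0_seq1, r = 0.989) and histone H3.3 (r = 0.987). For snakin-1 comp116484_c0_seq14 they were the same glycoprotein (r = 0.996), a putative AC transposase (r = 0.989) and the NADH dehydrogenase subunit (r = 0.988). These values describe 14 libraries in 7 groups, among 14912 and 14914 named candidates, and single forms of each gene. The component of comp106676_c0_seq2 kept 48.2 RPKM in water at day 5 and 38.8 and 29.4 with ABA, beside 138 and 168 in water at day 0 and day 8.

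GASA6, which in Arabidopsis promotes germination, was the most abundant name and never went fully off. Its leading form, comp100015_c1_seq4, stood in water at 339 and 240 RPKM at day 0, at 136 and 115 at day 5 and at 533 and 459 at day 8. With ABA it stood at 32.7 and 20.4 at day 5 and at 87.8 and 85.9 at day 8, below every water and NDGA library. With NDGA it stood at 280 and 256 at day 5 and at 553 and 498 at day 8. It made up 23.9% of the family sum with ABA at day 5 and 63.9% with NDGA at day 8.

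On the log2 scale, comp100015_c1_seq4 fell by 1.18 to day 5 in water (SE 0.191, limma adjusted p = 0.00104) and was 1.97 higher at day 8 than at day 5 (adjusted p = 3.62e-05). ABA differed from water by -2.23 at day 5 (adjusted p = 1.54e-05) and by -2.50 at day 8 (adjusted p = 1.45e-06). NDGA was 1.09 higher at day 5 (adjusted p = 0.00757), a call lost without water day 5 replicate 2 or either NDGA day 5 library (adjusted p up to 0.107). The higher level at day 8 than at day 0 in water (0.79, adjusted p = 0.0165) was lost without water day 0 replicate 2 or water day 8 replicate 1 (adjusted p up to 0.199).

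The GASA6 form comp100015_c0_seq1, of another component, followed it closely. It stood in water at 54.2 and 49.2 RPKM at day 0, at 32.1 and 29.9 at day 5 and at 119 and 103 at day 8. With ABA it was at 3.94 and 2.97 at day 5 and at 22.9 and 24.9 at day 8, and with NDGA at 64.2 and 60.8 and at 122 and 114. Its order ran from NDGA at day 8 and water at day 8, whose libraries overlap and which did not differ past the threshold (adjusted p = 0.872), over NDGA at day 5, water at day 0, water at day 5 and ABA at day 8 to ABA at day 5, and no other neighbours in this order overlapped.
In this form ABA differed from water by -2.85 at day 5 (SE 0.141, limma adjusted p = 7.53e-08) and by -2.16 at day 8 (adjusted p = 2.92e-07). It fell by 0.72 to day 5 in water (adjusted p = 0.00407), rose by 1.80 from day 5 to day 8 (adjusted p = 4.77e-06) and was 1.09 higher at day 8 than at day 0 (adjusted p = 0.000194). NDGA was 0.99 higher at day 5 (adjusted p = 0.00163). Its nearest transcripts were the leading GASA6 form (r = 0.985), LOB domain-containing protein 37 (r = 0.943), a transcription factor of nitrogen responses in Arabidopsis, and a DEAD-box RNA helicase (r = 0.931).

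The third GASA6 form, comp100015_c0_seq4, moved more. It stood at 63 and 55.3 RPKM in water at day 0, 7.93 and 3.9 at day 5 and 54.2 and 48.2 at day 8. With ABA it was at 0.554 and 0.804 at day 5 and at 4.62 and 3.65 at day 8, and with NDGA at 27.2 and 24 and at 21.6 and 23.5. Water at day 0 and day 8 and NDGA stood above 21 RPKM in all 8 libraries, and the other 6 stayed below 8.

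In water comp100015_c0_seq4 fell by 3.18 on the log2 scale to day 5 (limma adjusted p = 2.19e-06), and ABA differed from water by -1.98 at day 5 (adjusted p = 0.000511) and by -3.35 at day 8 (adjusted p = 1.07e-06). NDGA was 2.01 higher at day 5 (adjusted p = 0.000493). At day 8 the NDGA difference was -1.14 (adjusted p = 0.0302), where the other 2 GASA6 forms were not; the call was lost on leaving out any of 6 libraries, those of water at day 0, water at day 8 and NDGA at day 8 (adjusted p up to 0.194), and in the sum over comp100015_c0 (-0.19, adjusted p = 0.563). In that sum water was higher at day 8 than at day 0 (0.53, adjusted p = 0.00845). The remaining GASA6 members, comp100015_c0_seq3, comp100015_c1_seq1 and comp64786_c0_seq1, stayed at or below 5.24 RPKM in every library and had no call.

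GASA14, which in Arabidopsis takes part in leaf growth and in stress responses, was the name of 5 transcripts, of which 3, all of comp103173_c0, were lower in water at day 8 than at day 0. Its leading form, comp103173_c0_seq4, stood in water at 56.9 and 33.7 RPKM at day 0, 16 and 15.8 at day 5 and 6.33 and 5.54 at day 8. It was at 22.3 and 12.5 with ABA at day 5 and at 4.87 and 5.46 at day 8, and at 33.2 and 32.3 with NDGA at day 5 and 7.6 and 6.83 at day 8. Every day 8 library, whatever the injection, was below every day 5 library.

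On the log2 scale, comp103173_c0_seq4 fell by 1.41 to day 5 in water (limma adjusted p = 0.00319) and fell by 2.69 to day 8 (adjusted p = 1.69e-05). The change between day 5 and day 8 (-1.29, adjusted p = 0.0131) was lost on leaving out any of the 4 water libraries of those days (adjusted p up to 0.101). No ABA or NDGA difference passed: ABA differed by 0.07 ± 0.266 (SE) at day 5 and -0.17 ± 0.266 at day 8, and NDGA by 1.00 ± 0.266 at day 5 (adjusted p = 0.0856; 5 alternatives called it). In the sum over comp103173_c0, 79.1 ± 3 RPKM with NDGA at day 5 against 35.5 ± 2.72 with water did pass (adjusted p = 0.00686). That component also held an extensin-named form and an unnamed one.

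Its second form, comp103173_c0_seq2, stood at 23.7 and 18.9 RPKM in water at day 0, 5.2 and 3.67 at day 5 and 3.17 and 2.51 at day 8, and it fell by 2.04 to day 5 (limma adjusted p = 0.000111) and fell by 2.53 to day 8 (adjusted p = 1.63e-05). With NDGA at day 5 it was at 13.5 and 12.7 RPKM, 1.39 higher than water (adjusted p = 0.00914), a call lost without water day 5 replicate 2 or either NDGA day 5 library (adjusted p up to 0.113). The third form, comp103173_c0_seq7, named after its values were seen, fell from 5.42 ± 1.42 RPKM at day 0 to 0.555 ± 0.152 at day 8 (adjusted p = 0.00791), and not without water day 0 replicate 2 or water day 8 replicate 1 (adjusted p up to 0.0822). The GASA11-named comp118934_c0_seq10 went from 23.6 and 23 RPKM at day 0 to 14.1 and 11.5 at day 5 and 7.04 and 6.54 at day 8, a difference of -1.64 (adjusted p = 0.000656). Its fall to day 5 (-0.82, adjusted p = 0.0437) did not pass on leaving out any of 10 libraries (adjusted p up to 0.224).

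The GASA14 name of comp118646_c0_seq2 goes against its other annotation. Its Swiss-Prot score was 58.9, while the same transcript of 1855 bases had a KEGG score of 540 for a bacterial-type glycosyltransferase of peptidoglycan synthesis. It rose from 2.57 and 2.54 RPKM at day 0 to 8.42 and 9.75 at day 5 and 19.9 and 13.4 at day 8 in water (limma adjusted p = 0.000946 to day 5 and 2.84e-05 to day 8). No other of the 21 was called higher at both times against day 0. In the sum over its component neither rise passed (adjusted p = 0.823 and 0.155).

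Snakin-2, the wound-induced relative of snakin-1 in potato, was scarce. Its 2 transcripts, comp53872_c0_seq1 and comp55270_c0_seq1, reached at most 4.22 and 2.52 RPKM in any library, and no difference passed. The GASA14-named comp111072_c1_seq1 reached at most 2.95 RPKM, with no call. Of the 27 family rows under the limit, 15 were at 0 in all 14 libraries and 12 had a read, the highest at 1.61 RPKM in 1 library; the lowest member by mean level, comp55270_c0_seq1, averaged 0.531 RPKM.

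The effects of both injections differed between the days for part of the family, by limma's test of the difference itself. For ABA, 5 of the 21 passed (3.69% of all transcripts), 4 with a lower value at day 8 (2.54%) and 1 with a higher one (1.15%). The 4 were the on-and-off forms, whose water level at day 5 was already at or under 6 reads per library. For NDGA, 7 passed (2.65% of all), 6 lower (1.79%) and 1 higher (0.857%), with 5 of the 6 above water at day 5 and below it at day 8. In the GASA6 form comp100015_c0_seq1, the ABA effect did not differ between the days past the threshold (difference 0.69 ± 0.199 (SE), adjusted p = 0.0827). In the leading GASA6 form it differed by -0.26 ± 0.27 (adjusted p = 0.702).

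Genes that make, remove and sense gibberellin were counted by words in their Swiss-Prot names. Of 51 tested transcripts of gibberellin synthesis, 23 fell and 2 rose in water to day 5 (7.9% and 4.98% of all transcripts), with a median of -0.87 beside -0.03 over all transcripts. Among them ent-kaurene oxidase (comp100665_c1_seq3), an early step, fell from 37.9 ± 0.851 to 6.65 ± 0.568 RPKM (limma adjusted p = 6.00e-06). With ABA, 1 was higher and 1 lower at day 5 (1.21% and 0.956% of all), and 3 were higher and 14 lower at day 8 (4.3% and 8.98%). With NDGA, 2 were higher and 4 lower at day 5 (1.23% and 0.802% of all), and 1 was higher and 5 lower at day 8 (0.705% and 1.48%).

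Gibberellin 20-oxidase makes the precursors of the active hormone, and the form 1-B (comp103306_c0_seq1) was higher with ABA and lower with NDGA at both days. It stood at 75.6 and 72.8 RPKM in water, at 161 and 156 with ABA and at 9.98 and 7.15 with NDGA, with no overlap. ABA was 1.09 higher than water on the log2 scale (SE 0.147, limma adjusted p = 0.000973), and NDGA differed by -2.99 (adjusted p = 5.96e-08). At day 8 it was at 39.9 and 42.2 in water, 64.6 and 73.1 with ABA (adjusted p = 0.0047) and 7.46 and 7.99 with NDGA (adjusted p = 2.88e-06).

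Of 23 tested transcripts of gibberellin 2-oxidases, which inactivate the hormone, 1 was higher with ABA at day 5 (1.21% of all transcripts), and at day 8 2 were higher and 5 lower (4.3% and 8.98%). With NDGA none of the 23 passed at day 5 by limma's test (2.03% of all) and 3 were lower at day 8 (1.48%). The form comp104756_c0_seq2 stood in water at 15.6 and 10.8 RPKM at day 0, 7.67 and 7.23 at day 5 and 45.7 and 38.3 at day 8. It was at 20 and 21.2 with ABA at day 5 (1.35 higher, adjusted p = 0.000949), and at 9.83 and 9.02 with NDGA at day 8 (-2.04, adjusted p = 4.54e-05).

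Of 20 tested transcripts of gibberellin receptors, DELLA repressors and their partners, 1 rose and 4 fell to day 5 in water (4.98% and 7.9% of all transcripts), and 1 rose and 6 fell to day 8 (4.87% and 5.68%), with medians of -0.45 and -0.56. With ABA, 2 of the 20 were lower at day 5 and 4 at day 8 (0.956% and 8.98% of all), and none was higher (1.21% and 4.3%). With NDGA none passed at day 5 (2.03% of all), and at day 8 1 was higher (0.705%) and none lower (1.48%). DELLA protein SLR1 (comp116278_c0_seq2), a repressor of gibberellin responses, stood at 144 and 190 RPKM at day 0, 80.6 and 80.8 at day 5 and 25 and 31.7 at day 8 in water, and did not differ past the threshold with ABA at day 5 or day 8. With NDGA it was at 50.4 and 54.1 at day 8, 0.87 above water (limma adjusted p = 0.0164). The F-box protein GID2 (comp103153_c1_seq1), which marks DELLA proteins for removal, was at 50.5 and 63.7 at day 0, 19.4 and 17.7 at day 5 and 28.9 and 30.2 at day 8 in water, and differed by -1.55 with ABA at day 8 (8.23 and 10.8 RPKM, adjusted p = 4.78e-05). The receptor GID1C (comp102758_c0_seq4) was at 114 ± 6.96 RPKM with ABA against 152 ± 10.8 with water at day 5 (-0.41, adjusted p = 0.0372).

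**Figure D4:**
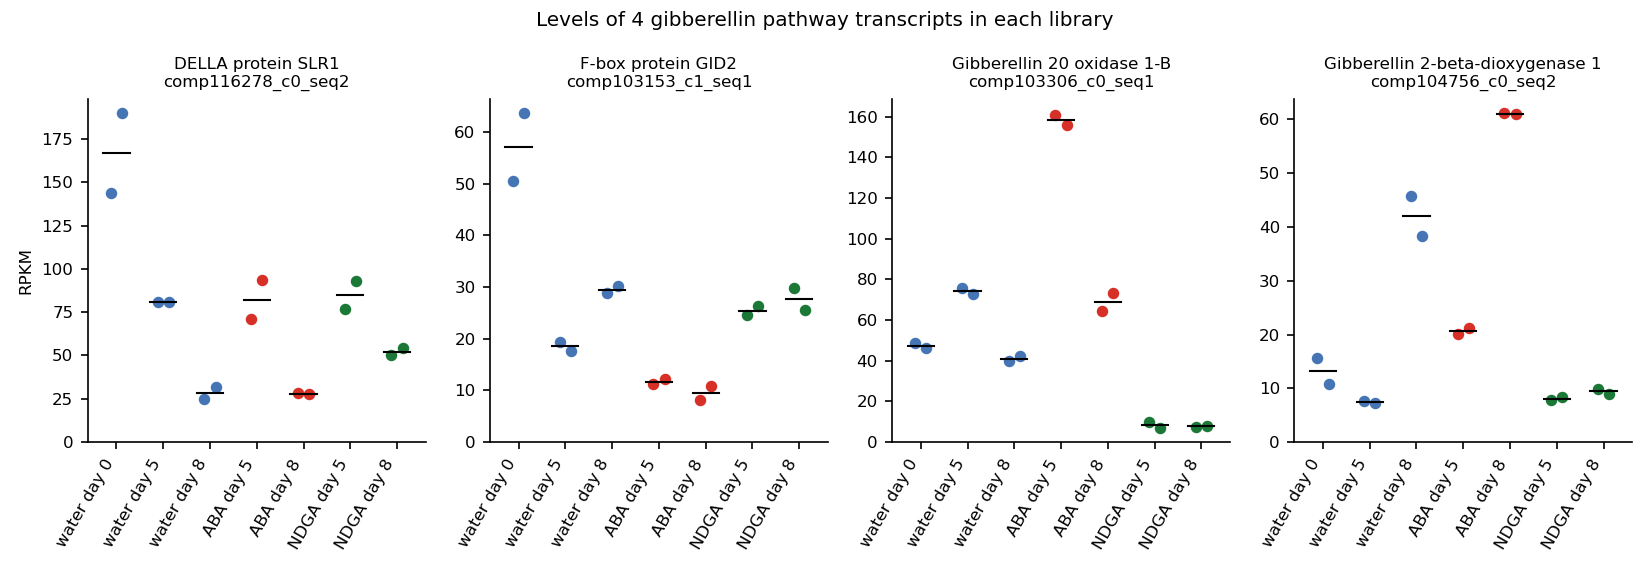
RPKM in each library (points, blue for water, red for ABA, green for NDGA) and group mean (bar) for a DELLA repressor, the F-box protein GID2, gibberellin 20-oxidase 1-B and a gibberellin 2-oxidase, each on a vertical axis from 0. The 20-oxidase is highest with ABA at day 5, at 156 and 161 RPKM, and lowest with NDGA, at 7.15 to 9.98 RPKM.

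Expansins loosen cell walls during growth and softening. Of 53 tested transcripts, 10 rose and 11 fell to day 5 in water (4.98% and 7.9% of all transcripts). With ABA at day 5, 3 were higher and 3 lower (1.21% and 0.956% of all), with a median of -0.02. With ABA at day 8, 1 was higher and 21 lower (4.3% and 8.98% of all), with a median of -0.71 beside -0.20 over all. With NDGA at day 5, 6 were higher and 3 lower (1.23% and 0.802% of all). Expansin-A1 (comp102218_c1_seq2) was at 52.7 ± 5.33 RPKM with ABA against 252 ± 21.7 with water at day 8 (limma adjusted p = 4.00e-09), while expansin-A8 (comp105538_c0_seq2) was at 260 ± 4.94 with ABA against 87.2 ± 8.86 with water at day 5 (adjusted p = 3.84e-06). Other cysteine-rich antimicrobial peptides, the defensins, thionins, heveins and lipid-transfer proteins, had 144 tested, of which 15 rose and 37 fell to day 5 in water (4.98% and 7.9% of all transcripts). Of them, 9 were higher and 25 lower with ABA at day 8 (4.3% and 8.98% of all), and 6 were higher and 6 lower with NDGA at day 5 (1.23% and 0.802%). Their medians in these 3 comparisons were -0.26, -0.26 and 0.00.

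Markers of other tissues moved with the groups. Transcripts named as chlorophyll a-b binding proteins, for green tissue, summed to 848 ± 70.6, 893 ± 47.7 and 2133 ± 122 RPKM in water at days 0, 5 and 8, to 388 ± 34.4 and 422 ± 13.6 with ABA and to 2114 ± 10.1 and 1408 ± 22.5 with NDGA, with 27 to 32 of 86 at 0 per group. Of 54 tested, 31 were lower and 1 higher with ABA at day 8 (8.98% and 4.3% of all transcripts), and 10 were higher with NDGA at day 5 (1.23% of all) with none of the 54 lower (0.802%). Vessel and fibre markers summed to 849 ± 55.2, 317 ± 11.1 and 384 ± 4.18 in water, to 305 ± 7.28 and 267 ± 11.6 with ABA and to 439 ± 0.694 and 328 ± 6.98 with NDGA, with 5 to 22 of 44 at 0. Seed markers summed to 20808 ± 1455, 5123 ± 85.9 and 234 ± 1.18 in water, 149 ± 11.4 and 81.7 ± 8.24 with ABA and 161 ± 14 and 143 ± 5.56 with NDGA, with 55 to 101 of 142 at 0. Their part in the changes of the gibberellin-regulated and snakin transcripts was not tested.

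**Figure D5:**
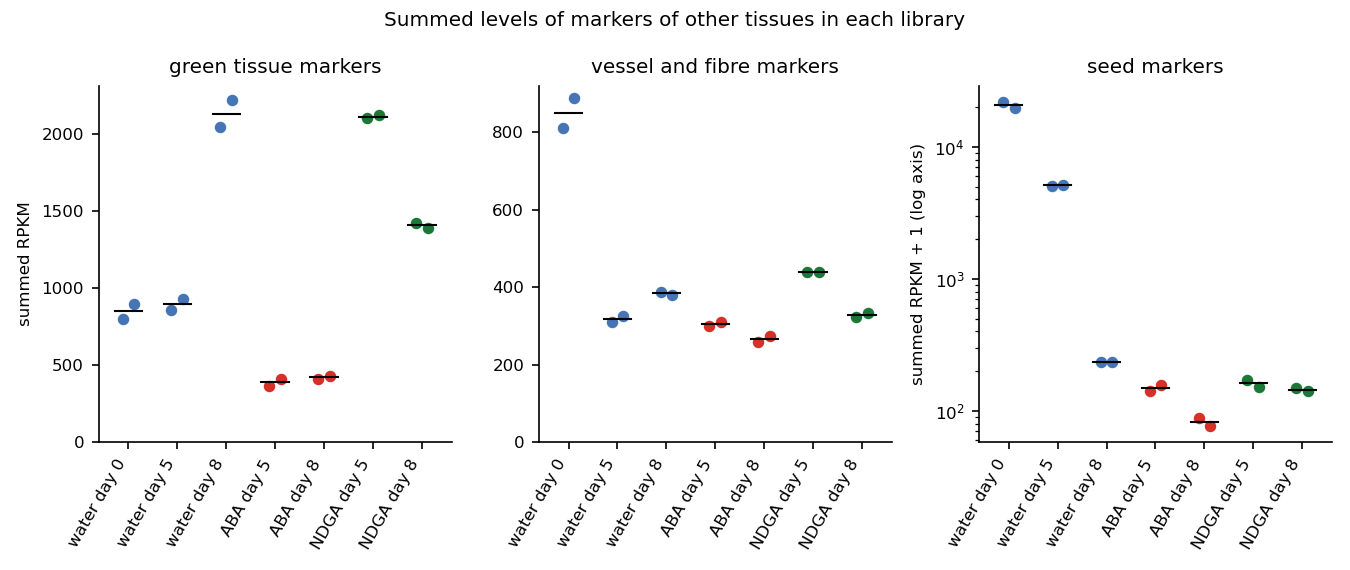
Summed RPKM of marker transcripts of green tissue, of vessels and fibres and of seeds in each library (points, blue for water, red for ABA, green for NDGA) with the group mean (bar); the seed panel has a log axis of RPKM + 1. Green markers are lowest with ABA, at 364 to 431, and seed markers fall from about 20808 at day 0 to 234 at day 8 in water.

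The authors' deposited table of clustered transcripts listed 1 of the 21, snakin-1 comp116484_c0_seq14, in cluster 3. In the authors' deposited table the unnamed form comp116484_c0_seq8 of the same component was in cluster 1. In the authors' deposited list of predicted targets of 299 miRNAs, none of the 48 family rows appeared. The share of all transcripts in that list was not counted.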

How the data were processed

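RPKM of 14 polyadenylated RNA libraries were used as the authors deposited them; per the file headers and labels, they refer to transcripts assembled without a genome. Swiss-Prot and KEGG alignment scores are those the authors deposited. No source used here states the search tool, aligner or counter. Multiplying RPKM by length recovered whole reads, within 0.1 read, for 100% of values. The labels' protocols speak of 7 libraries, while 14 samples are given. No transcript sequences were used here.

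For the 99136 transcripts reaching 1 RPKM in 2 libraries or more, limma 3.58.1 (R 4.3.3) fitted log2(RPKM + 1) in the 14 libraries with 7 group means. Its moderated test used a trend in the spread, 7 residual and 6.05 prior degrees of freedom. Each of 9 comparisons was adjusted by the Benjamini-Hochberg method. This scale understates changes of low transcripts. The script was tested on simulated data with known changes in ABA at day 8, in well-covered transcripts and at a fixed spread. That test cannot speak for calls of forms near 0. A 0 was set to 3 reads per library for bounds on folds. Figures used matplotlib 3.10.9, and tables pandas 2.3.3.

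The members and lists were chosen with earlier results of these data known. Family transcripts named in full are the 3 given with the rule and the most abundant of each Swiss-Prot name. Also named are, in each comparison of 2 groups, the 5 with the smallest adjusted p whose higher group averaged 5 RPKM or more. Any other family transcript was named after its values were seen, also where this is not said beside it. Transcripts named from the gibberellin and expansin lists had the smallest adjusted p of their list in at least 1 comparison. Their p-values are therefore those of selected extremes and do not stand for the list. Alternatives were pseudocounts of 0.1 and 5, no or a stricter filter, other scalings, a replicate term, the compared groups alone, voom on recovered reads, component sums and leaving out each library.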

Additional observations from a re-analysis of the deposited data

Results flagged for a closer look

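The effects of the injections differed between day 8 and day 5 for 5 transcripts with ABA and for 7 with NDGA, by limma's test of the difference itself on log2(RPKM + 1), over 2 libraries per group. For ABA, day 8 minus day 5 was -7.05 in the GASA1 form comp102519_c2_seq5 (adjusted p = 7.3e-08), -5.67 in snakin-1 comp102092_c1_seq3 (adjusted p = 2.51e-07), -6.36 in snakin-1 comp116484_c0_seq14 (adjusted p = 2.66e-07) and -4.27 in the GASA11-named comp102519_c2_seq1 (adjusted p = 0.0012). Water at day 5 already held at most 6 reads per library in these forms, so ABA could hardly lower them further at that day. For snakin-1 comp102092_c1_seq2 the difference was 1.94 (adjusted p = 0.0138), but -1.37 in the sum over its component (limma adjusted p = 0.00507).

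For NDGA, the difference was -8.05 in comp102519_c2_seq5 (adjusted p = 2.58e-08), -8.13 in comp116484_c0_seq14 (adjusted p = 2.88e-08), -6.92 in comp102092_c1_seq3 (adjusted p = 3.8e-08) and -5.15 in comp102519_c2_seq1 (adjusted p = 0.000316). In the GASA6 forms it was -3.15 in comp100015_c0_seq4 (adjusted p = 0.000209) and -0.90 in comp100015_c0_seq1 (adjusted p = 0.0286). For comp102092_c1_seq2 it was 1.64 (adjusted p = 0.0425), but -2.21 in the sum over its component (limma adjusted p = 0.000185). The water libraries of day 5 and day 8 enter both the ABA and the NDGA differences.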

How the results depend on the processing

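Of the 56 called changes of transcripts described by name, 39 passed in every alternative other than fitting the compared groups alone. That number includes calls that passed in component sums with the opposite direction, where 3 of the 56 turned. With the compared groups alone as well, 14 kept their call, and 13 of the 56 were lost on leaving out at least 1 library. With the compared groups alone, calls among the 21 were 3 in water from day 0 to day 5, 2 from day 5 to day 8 and 2 from day 0 to day 8, 0 for ABA at day 5, 1 for NDGA at day 5 and 0 for NDGA at day 8; that fit has fewer samples. Component sums, which forms of 1 component share, gave 15 calls for day 8 against day 5 in water and 15 for NDGA at day 5. NDGA at day 8 gave 2 calls at a pseudocount of 0.1, where 1358 of all transcripts were called against 2164 in the main fit. It gave 3 with no filter, and the ABA difference between days gave 3 with voom. The cause was not tested. For component sums, no filter and voom the share called over all is not given, so these counts do not separate the family from the whole. Leaving out 1 library gave 10 to 11, 8 to 10 and 6 to 10 calls for the 3 water comparisons, 3 to 4 and 8 to 9 for ABA at day 5 and day 8, 6 to 9 and 3 to 7 for NDGA, and 4 to 6 and 5 to 7 for the differences between days. Over all transcripts, the lowest count with 1 library left out was below that of the main fit in every comparison. In component sums the direction turned in some comparisons of 2 groups, by construction with the larger form. For comp102092_c1_seq2 the sums gave -2.54 from day 0 to day 5 in water and 1.47 from day 5 to day 8. They also gave -1.89 for ABA at day 8, 1.15 for NDGA at day 5 and -1.06 for NDGA at day 8. The direction also turned for comp100015_c0_seq4 (0.53) and comp116484_c0_seq14 (-0.38), both for day 8 against day 0. Over all transcripts, the compared groups alone gave 998, 45, 823, 10, 1135, 22 and 0 calls in the 7 comparisons in the order above with ABA at day 5 and day 8 before NDGA, against 12766, 4629, 10464, 2146, 13163, 2015 and 2164.

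With the replicate number as a term (replicate block), 12, 9, 10, 4, 10, 9 and 7 of the 21 were called in the 7 comparisons and 7 and 8 in the differences between days. The share of all transcripts called with this term is not given, so these counts have no background beside them. The labels do not say that a number marks a shared fruit pool or day, and deviations of same-numbered libraries correlated by 0.0503 to 0.1009. Levels of the on-and-off forms in the low groups rest on 0 to 6 reads per library.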

Other observations

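The reads recovered from RPKM and length were even numbers in all 14 libraries for 5 of the 17 family transcripts with 100 or more reads in all, namely 4 forms of comp102519_c2 and comp116484_c0_seq14. Of 45075 tested transcripts with that many reads, 2115 had even numbers throughout.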
